A study of Homo sapiens with 145 samples.

Results

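The response of HT-1080 cells to the highest dose of etoposide was set against their response to the highest dose of quercetin. Of the 145 arrays of the study, 21 enter, which give 20 replicates in 4 groups of 5: cells given 3 µM etoposide (ETP), cells given the DMSO vehicle of the ETP experiment, cells given 100 µM quercetin (QUE), and cells given the DMSO vehicle of the QUE experiment. HT-1080 is an established human fibrosarcoma line. It was grown in serum-supplemented minimal essential medium in 24-well plates, and every group was exposed for 24 h with 0.1% DMSO. Arrays were chosen by title: all replicate numbers other than 2 were taken, and the 2 arrays of QUE 100 µM number 6 were averaged. The titles of QUE 100 µM numbers 1 and 4, 1 array of number 6 and QUE vehicle number 4 end in nf. No ETP array used has this ending, and the labels do not say what it means. The doses differ, so every statement below is about ETP at 3 µM and QUE at 100 µM and not about the compounds at a common dose.

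Etoposide is a topoisomerase II poison: it holds the enzyme on cut DNA, so that double-strand breaks form and the p53 pathway is activated. Quercetin is a plant flavonol that inhibits several protein kinases, takes part in redox reactions and binds the aryl hydrocarbon receptor. It is also known to inhibit the induction of heat shock proteins. Both compounds are used as DNA-damaging agents in cell culture, and p53 drives CDKN1A, MDM2 and other genes of arrest, repair and death after such damage. Other stress pathways that could separate the compounds are the ATF4 response to amino acid shortage, the unfolded protein response of the endoplasmic reticulum and the NRF2 response to oxidants and electrophiles.

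The measure is the difference of responses: the log2 change at ETP 3 µM from the ETP vehicle, minus the log2 change at QUE 100 µM from the QUE vehicle. A positive difference means that the gene stood higher with ETP than with QUE, relative to the vehicle of each. Array medians of the 2 experiments did not overlap, at 3.51 to 3.58 for the ETP arrays and 3.33 to 3.41 for the QUE arrays (log2), so levels were compared within a chemical only. The test was limma's moderated test over 11412 genes, and a gene was called at an adjusted p under 0.05 and at least 1.5-fold. Errors of changes and differences are SEs from this fit, and errors of levels are SDs over 5 replicates. The fit takes 1 variance per gene from all 4 groups, so the SE of an ETP change also holds the spread of the QUE replicates. For BCL2 the SE was 0.44 for either change, with SDs of 0.15 at ETP 3 µM and 1.51 at QUE 100 µM. A missing call for ETP therefore does not show that ETP left the gene unchanged. The labels do not say that the replicate numbers are separate cultures, so the p-values measure the spread between these samples. In bulk RNA, fewer cells of a kind and less RNA per cell cannot be told apart. Group means under 4 count as background here, which leaves the size of any change from or to them uncertain.

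The arrays numbered 2 stood apart, and the results rest on leaving them out. The response of the array labelled ETP 3 µM number 2 correlated across genes at 0.31 with the mean ETP response of the other numbers and at 0.91 with their QUE response. For its counterpart labelled QUE 100 µM number 2 the correlation was 0.90 with the ETP response and 0.39 with the QUE response. In the remaining numbers the correlation with the chemical on the label was 0.81 to 0.91 for ETP. For QUE it was 0.55 in number 3, 0.74 in number 1 and 0.91 to 0.93 in numbers 4, 5 and 6. Of the 2483 genes called for the difference without number 2, 2471 (99.5%) had the opposite sign in number 2. CXCL8, for example, stood in number 2 at 11.11 in the array labelled ETP 3 µM, against 8.72 in its vehicle, and at 7.78 in the array labelled QUE 100 µM, against 8.91 in its vehicle. With number 2 kept as labelled, limma called 0 genes for the difference (1419 had an unadjusted p under 0.05, and the smallest adjusted p was 0.398). Number 2 was left out for what it showed, so the p-values below describe the remaining numbers. Why it differs was not tested.

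ETP 3 µM raised 689 genes (6.04%) and lowered 743 (6.51%), together 12.5% of those tested. QUE 100 µM raised 1559 (13.7%) and lowered 1760 (15.4%), together 29.1%. Counts of list members that rose or fell are to be read against these shares. The difference was called for 2483 genes, 21.8% of those tested, with 1344 higher with ETP (11.8%) and 1139 lower (9.98%). The SD of the change over all genes was 0.46 for ETP and 0.68 for QUE. Both chemicals called 752 genes, which were 52.5% of the ETP genes and 22.7% of the QUE genes. Of these, 303 rose with both, 379 fell with both and 70 moved in opposite directions. Most called differences were genes that QUE moved without a call for ETP, 703 of them raised and 800 lowered. ETP alone raised 184 and lowered 128 genes with a called difference. Dosed and vehicle replicates did not overlap for 24.5% of genes with ETP and 28.6% with QUE, and the responses to the chemicals did not overlap for 25.9%. The markers of a mesenchymal cell were present, with 8 of 10 at or above 4, VIM among them. Endothelial markers (0 of 6), blood cell markers (CD68 alone of 8), neural markers (TUBB3 alone of 6) and epithelial markers (KRT8 and KRT18 alone of 10) were largely under 4.

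**Figure D1:**
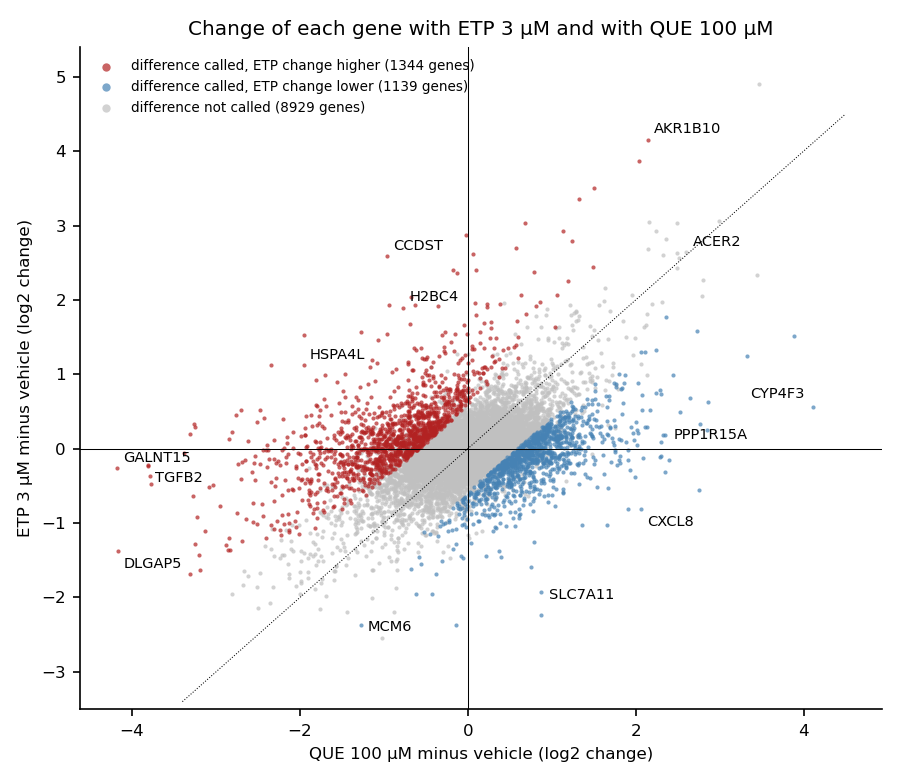
Log2 change of each of 11412 genes at ETP 3 µM (vertical axis) against its change at QUE 100 µM (horizontal axis), each from its own vehicle mean. Red points are the 1344 genes called higher with ETP in the difference, blue points the 1139 called lower and grey points those not called, and the dotted line marks equal changes. The cloud is wider along the QUE axis, and points far from 0 on that axis often lie near 0 on the other.

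Of the 10 leading genes higher with ETP than with QUE, 8 were lowered by QUE and not called with ETP, and CCDST and GAS6-AS1 were also raised by ETP. The 8 include TGFB2, a secreted TGF-beta ligand, GALNT15, an enzyme that starts O-linked glycosylation, SLC2A12, a glucose transporter, TXNIP, the thioredoxin-binding protein that restrains glucose uptake, RAB26, a small GTPase of secretory vesicles, PLA2G4A, the cytosolic phospholipase A2 that releases arachidonic acid, and GNG2, a G protein gamma subunit. TGFB2 stood at 9.30, 9.80, 9.28, 9.06 and 8.97 with ETP 3 µM, against 9.02, 9.72, 9.76, 9.51 and 9.49 in the ETP vehicle. After QUE 100 µM it stood at 7.02, 6.72, 4.53, 4.98 and 5.14, against 9.21, 9.70, 9.59, 9.43 and 9.49 in the QUE vehicle. Every QUE-treated replicate lay below every QUE vehicle replicate, with numbers 1 and 3 less far down than the others, while the ETP groups overlapped. The difference for TGFB2 was 3.59 ± 0.49 (adjusted p = 2.41e-05). TXNIP had 9.35, 10.62, 10.94, 10.42 and 10.37 with ETP 3 µM, against 8.69, 10.22, 10.67, 10.27 and 10.35 in its vehicle, and 7.38, 6.79, 6.51, 6.87 and 6.85 with QUE 100 µM, against 8.75, 10.22, 11.12, 10.38 and 10.17 in its vehicle. Number 1 was low for TXNIP in both vehicle groups and in the ETP group, and the QUE groups still did not overlap. The difference for TXNIP was 3.55 ± 0.54 (adjusted p = 6.71e-05).

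The other genes of this kind differed by similar amounts. The difference was 3.92 ± 0.56 for GALNT15, 3.59 ± 0.67 for RAB26, 3.57 ± 0.52 for SLC2A12, 3.51 ± 0.68 for PLA2G4A and 3.41 ± 0.55 for GNG2. QUE-treated means of GALNT15, RAB26, SLC2A12 and PLA2G4A lay under 4, so these sizes are uncertain. GNG2 has a second probe set on the array, whose difference was 0.30. COL1A1, a chain of type I collagen, had a difference of 3.47 ± 0.60, with an ETP change of 1.13 that was not called (adjusted p = 0.0556) and a QUE change of -2.35. Its other 2 probe sets gave differences of -0.06 and 0.80.

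A smaller set moved in opposite directions. Higher with ETP and lower with QUE were 49 genes, among them CCDST, a long non-coding RNA, GAS6-AS1, an antisense transcript at GAS6, HSPA4L, a chaperone of the HSP110 family, and TCEA3, a transcription elongation factor. HSPA4L stood at 8.36, 7.61, 8.31, 8.40 and 8.23 with ETP 3 µM, against 7.26, 6.83, 7.02, 6.99 and 7.17 in the ETP vehicle. In QUE-treated replicates its values were 5.06, 5.26, 5.03, 4.77 and 4.83, against 7.31, 6.94, 6.71, 6.89 and 6.87 in the QUE vehicle. Neither pair of groups overlapped, in opposite directions. HSPA4L changed by 1.13 ± 0.15 with ETP and -1.96 ± 0.15 with QUE, and the difference was 3.08 ± 0.21 (adjusted p = 1.19e-08). CCDST stood at 8.30, 8.47, 8.49, 8.31 and 8.04 with ETP 3 µM, against 5.11, 6.19, 5.86, 5.84 and 5.69 in its vehicle, and at 5.37, 4.07, 3.51, 4.58 and 4.57 with QUE 100 µM, against 5.02, 5.82, 5.38, 5.30 and 5.38 in its vehicle. Its ETP groups were far apart, and the QUE groups overlapped, with number 1 above its own vehicle. CCDST changed by 2.59 ± 0.25 and -0.96 ± 0.25, GAS6-AS1 by 1.53 and -1.95, and TCEA3 by 1.93 and -0.94 (ETP first in each pair). QUE-treated means of GAS6-AS1 and TCEA3 lay under 4, so the sizes of their QUE changes are uncertain.

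Lower with ETP and higher with QUE were 21 genes. They were led by CXCL8, the neutrophil chemokine interleukin 8, SLC7A11, the cystine importer, BCL2A1, an anti-apoptotic BCL2 relative, MIR17HG, the host transcript of the miR-17-92 cluster, and FOSL1, the AP-1 subunit FRA1. CXCL8 had 8.29, 8.75, 8.35, 8.73 and 8.71 with ETP 3 µM, against 9.60, 9.55, 9.64, 8.74 and 9.37 in the ETP vehicle. Under QUE treatment it had 11.57, 11.14, 11.19, 11.29 and 11.57, against 9.41, 9.58, 9.41, 8.82 and 9.22 in the QUE vehicle. The QUE-treated replicates were all above their vehicles, and the ETP groups touched only through vehicle number 5, which was low. CXCL8 changed by -0.81 ± 0.17 with ETP and 2.06 ± 0.17 with QUE, a difference of -2.88 ± 0.23 (adjusted p = 5.36e-08). BCL2A1 changed by -0.81 and 1.91, MIR17HG by -1.02 and 1.65, and FOSL1 by -1.03 and 1.36 (ETP first in each pair). Without QUE 100 µM number 3 the count of 21 became 40.

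The largest fall of the difference belonged to CYP4F3, a cytochrome P450 that hydroxylates leukotriene B4. It stood at 3.43, 2.99, 3.65, 3.42 and 3.15 with ETP 3 µM, against 2.81, 2.74, 2.92, 2.61 and 2.73 in the ETP vehicle, all under 4. At 100 µM QUE it reached 6.71, 6.74, 7.02, 7.08 and 7.06, against 2.37, 2.91, 3.09, 2.89 and 2.79 in the QUE vehicle. It was above background in the QUE-treated replicates alone, so it had to differ once it passed the filter, and its difference of -3.54 ± 0.20 (adjusted p = 5.55e-10) is uncertain in size. The same holds for CXCR4, a chemokine receptor, with -2.43, and for MYH3, a muscle myosin heavy chain, with -2.60. NMRAL2P, a pseudogene under NRF2, differed by -2.54, and its mean was above 4 in the QUE-treated group alone, where number 3 stood at 3.65. ESM1, a secreted proteoglycan of endothelial cells, stood above background in all 4 groups and differed by -3.31 ± 0.62. NUP58, a nuclear pore protein, differed by -2.66 ± 0.27, and its other 3 probe sets by -0.75 to -0.42.

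**Figure D2:**
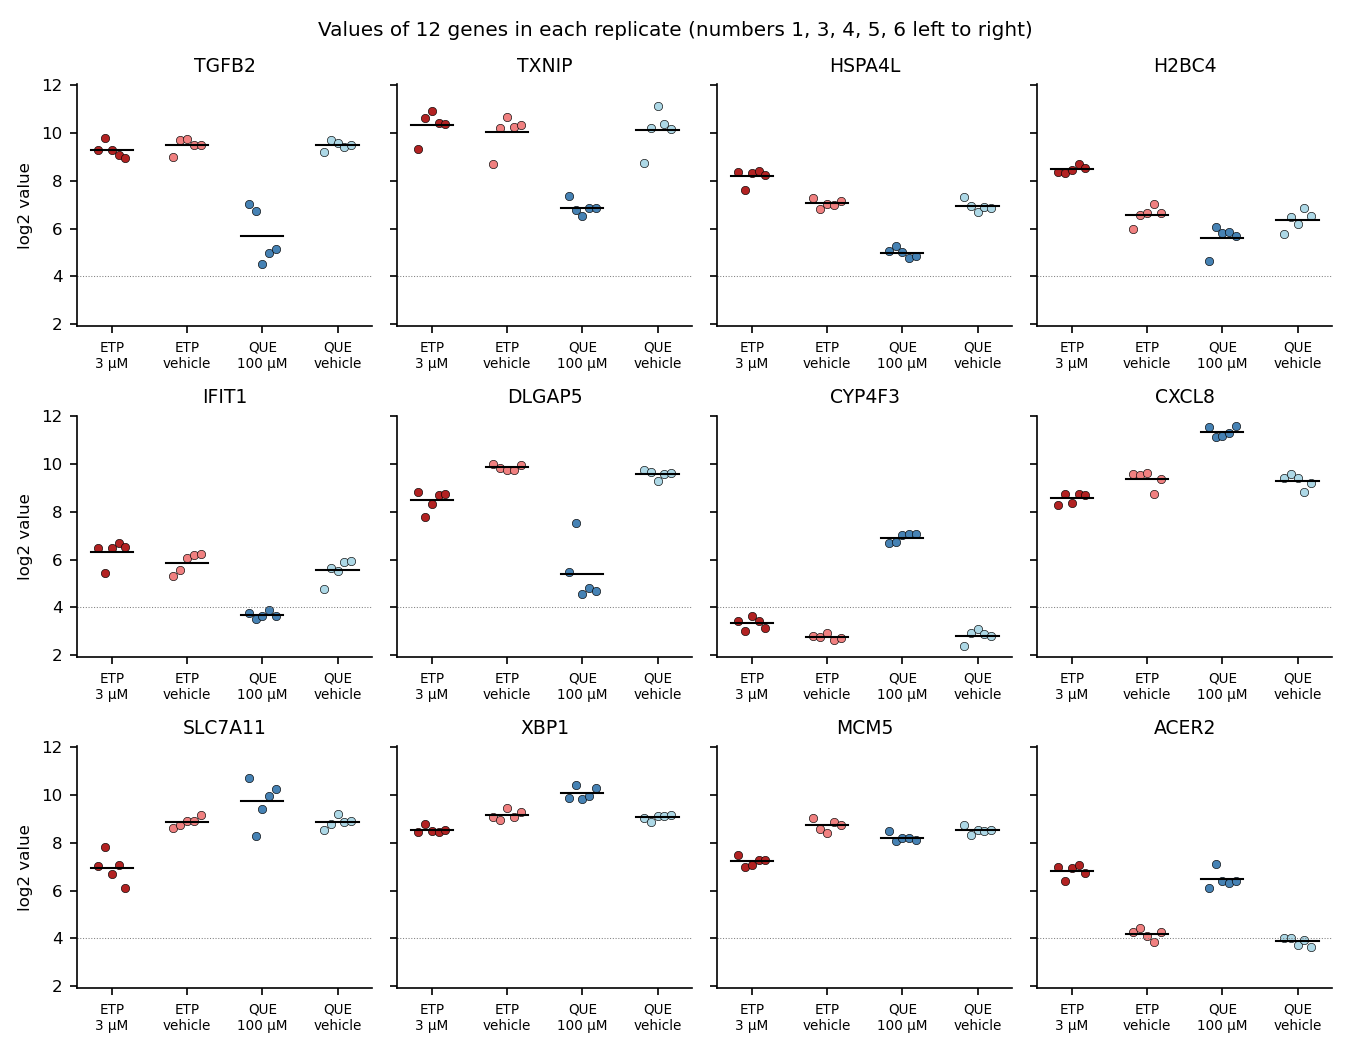
Log2 values of 12 genes in the 5 replicates of each group, from left to right ETP 3 µM, ETP vehicle, QUE 100 µM and QUE vehicle; bars are group means and the dotted line is the filter level of 4. HSPA4L and XBP1 move in opposite directions with the chemicals, CYP4F3 is above 4 with QUE 100 µM alone, and ACER2 rises with both.

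Most p53 targets rose with both chemicals, and the share of them with a called difference was near that of all genes. Of 36 p53-activated targets tested, 30 rose with ETP and 0 fell (6.04% and 6.51% of all genes), and 31 rose with QUE and 1 fell (13.7% and 15.4%). The 1 that fell was PLK2 (chosen after its value was seen). The median change of the list was 1.13 with ETP and 1.14 with QUE, against 0.01 and 0.00 over all genes. The difference was called higher for 5 members and lower for 2, or 19.4% of the list against 21.8% of all genes, and its median was 0.05. The 2 became 1 without ETP 3 µM number 3 or 4, ETP vehicle number 5 or 6, or QUE vehicle number 6.

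ACER2, an alkaline ceramidase, stood at 6.97, 6.40, 6.96, 7.06 and 6.72 with ETP 3 µM, against 4.27, 4.42, 4.11, 3.83 and 4.26 in its vehicle. With QUE 100 µM it stood at 6.12, 7.13, 6.40, 6.31 and 6.40, against 4.03, 4.02, 3.71, 3.95 and 3.64 in its vehicle, where the mean lay under 4. Both pairs of groups were separate, and the responses of the chemicals overlapped. The difference for ACER2 was 0.05 ± 0.24, with a 95% interval of -0.46 to 0.55. In 70 genes both chemicals raised expression and the 95% interval of the difference lay within 1.5-fold. The leading ones beside ACER2 were XPC, the damage sensor of nucleotide excision repair (-0.33 to 0.39), CERS5, a ceramide synthase (-0.48 to 0.15), TIGAR, a fructose bisphosphatase (-0.48 to 0.52), and TP53TG1, a p53-responsive long non-coding RNA (-0.46 to 0.50).

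CDKN1A, the inhibitor of cyclin-dependent kinases, averaged 10.74 ± 0.13 with ETP 3 µM and 8.91 ± 0.21 in its vehicle, and 9.84 ± 0.31 with QUE 100 µM and 8.55 ± 0.11 in its vehicle. It rose by 1.83 and 1.29 (ETP first), and the difference of 0.54 ± 0.18 was under 1.5-fold (adjusted p = 0.0273). MDM2, the ubiquitin ligase of p53, rose by 1.35 and 1.13, with a difference of 0.23 ± 0.13 (adjusted p = 0.192). The other 6 probe sets of MDM2 gave differences of 0.18 to 1.14, so its likeness between the chemicals depends on the probe set. GDF15, a stress cytokine, rose by 1.11 with ETP and also rose with QUE, with a difference of -0.48 ± 0.24 (adjusted p = 0.143). Its responses did not overlap, at 0.97 to 1.23 with ETP and 1.44 to 1.70 with QUE, as in 25.9% of all genes. The 95% interval was 0.17 to 0.91 for CDKN1A, -0.04 to 0.49 for MDM2 and -0.99 to 0.02 for GDF15. Those of CDKN1A and GDF15 reach past 1.5-fold. For CDKN1A the difference was called in 3 of 20 fits with 1 replicate left out.

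Among the p53 targets with a called difference, TRIM22, an antiviral ubiquitin ligase, rose by 1.44 with ETP and stood at -0.20 with QUE. The difference for TRIM22 was 1.64 ± 0.28 (adjusted p = 0.000205). DDB2, the partner of XPC in damage recognition, rose with both and differed by 0.90 ± 0.17. BAX, which permeabilises mitochondria, changed by 0.56 with ETP and -0.50 with QUE, each under 1.5-fold, with a called difference of 1.06 ± 0.16. PLK2, a polo-like kinase, changed by 0.45 and fell by 0.62 on the log2 scale with QUE, a difference of 1.07 ± 0.13. The fifth gene higher with ETP was SESN1, an inhibitor of mTORC1 signalling (0.60), and the 2 lower with ETP were AEN, an exonuclease of apoptosis (-0.84), and FAS, the death receptor (-0.59). These 3 were chosen after their values were seen.

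Genes of mitosis fell with both chemicals, and 15 of them fell further with QUE or fell with QUE alone. Of 32 G2/M genes 30 fell with ETP and 32 with QUE (6.51% and 15.4% of all genes did), with median changes of -1.29 and -2.11. The difference was called higher with ETP for 15 and lower for 0 (46.9% of the list, against 21.8% of all genes, with a median of 0.93 against 0.00). DLGAP5, a spindle protein, stood at 8.82, 7.78, 8.35, 8.70 and 8.76 with ETP 3 µM, against 9.99, 9.84, 9.75, 9.73 and 9.97 in its vehicle. After QUE 100 µM it stood at 5.48, 7.53, 4.55, 4.81 and 4.69, against 9.73, 9.66, 9.30, 9.57 and 9.63 in its vehicle. All dosed replicates lay below their vehicles, and QUE number 3 lay within the range of the ETP-treated replicates' fall. The difference for DLGAP5 was 2.79 ± 0.53 (adjusted p = 0.000608). KIF20A, a kinesin of cytokinesis, stood at -0.63 with ETP, where it was not called (adjusted p = 0.122), and fell by 3.27 on the log2 scale with QUE. HMMR, a receptor of hyaluronan at spindle poles, changed by -1.11 and -3.14, and BUB1, a spindle checkpoint kinase, by -1.43 and -3.20. TOP2A, the topoisomerase II isoform of dividing cells and a target of etoposide, changed by -0.69 with ETP and -1.90 with QUE, a difference of 1.21 ± 0.33. Its other 2 probe sets gave differences of -0.0049 and 1.09.

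Some genes of DNA replication showed the other order, though the called share of their list was under that of all genes. Of 37 G1/S genes 22 fell and 1 rose with ETP, and 13 fell and 1 rose with QUE, with medians of -0.91 and -0.53. The difference was called lower with ETP for 5 and higher for 1, or 16.2% of the list. Of all genes 21.8% were called, 9.98% lower and 11.8% higher. The 5 became 10 without QUE 100 µM number 3. MCM5, a subunit of the replicative helicase, stood at 7.49, 6.98, 7.06, 7.28 and 7.28 with ETP 3 µM, against 9.05, 8.57, 8.41, 8.88 and 8.75 in its vehicle. In QUE-treated replicates it had 8.48, 8.08, 8.20, 8.22 and 8.12, against 8.75, 8.34, 8.53, 8.50 and 8.52 in its vehicle. The ETP groups were apart and the QUE groups overlapped, with a difference of -1.21 ± 0.18 (adjusted p = 5.33e-05). The others lower with ETP were RFC4, a clamp loader subunit (-1.30), ORC1, of the origin recognition complex (-1.17), MCM6, another helicase subunit (-1.09), and, chosen after its value was seen, MCM2 (-0.94). PCNA, the sliding clamp and also a p53 target, was the 1 higher with ETP (0.67), likewise chosen after its value was seen.

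Promoters from RefSeq (GRCh38.p14, 250 bases before to 50 after the start) are shown for one gene of each of 5 lists with a well-known element. Each gene shown has a called difference. Whether the elements bear on the difference was not tested. The cell cycle homology region, searched as TTTGAA, was found in 18 of 27 G2/M promoters (66.7%), against 15.4% of all promoters and 9.87% of those of tested genes. An E2F site, searched as TTTGGCGC, TTTCGCGC or TTTCCCGC, was found in 19 of 32 G1/S promoters (59.4%), against 2.79% and 4.82%. The interferon response element, searched as 2 copies of GAAA with any 2 bases between, was in 12 of 17 promoters of interferon-stimulated genes (70.6%), against 3.65% and 2.78%. The amino acid response element of ATF4, searched as TGATGNAA, was in 5 of 22 promoters of its list (22.7%), against 3.67% and 1.76%. The endoplasmic reticulum stress element, searched as CCAAT and CCACG with any 9 bases between, was in 6 of 18 promoters of chaperones (33.3%), against 0.0806% and 0.127%. Both strands were searched, E2F matches on opposite strands may overlap, and a match describes letters and not a bound site. The difference, called for 21.8% of all genes, was called for 7 of 18 G2/M genes with a match and 6 of 9 without, and for 3 of 19 and 2 of 13 G1/S genes. It was called for 6 of 12 interferon-stimulated genes with a match and 4 of 5 without, for 3 of 5 and 10 of 17 in the ATF4 list, and for 1 of 6 and 8 of 12 chaperones. Capitals mark the matches in these promoters, which are given 5′ to 3′ on the strand of the gene: DLGAP5 (chr14:55191536-55191835, minus strand, TTTGAA), MCM6 (chr2:135876394-135876693, minus strand, E2F), IFIT1 (chr10:89392373-89392672, plus strand, interferon), ASNS (chr7:97872359-97872658, minus strand, ATF4) and XBP1 (chr22:28800520-28800819, minus strand, stress element).
DLGAP5: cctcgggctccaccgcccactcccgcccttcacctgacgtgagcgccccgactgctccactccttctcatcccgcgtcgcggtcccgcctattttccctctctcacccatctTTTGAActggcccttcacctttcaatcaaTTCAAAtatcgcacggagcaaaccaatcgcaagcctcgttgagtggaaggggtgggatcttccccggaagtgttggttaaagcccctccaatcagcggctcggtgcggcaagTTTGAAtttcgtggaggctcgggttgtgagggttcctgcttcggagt
MCM6: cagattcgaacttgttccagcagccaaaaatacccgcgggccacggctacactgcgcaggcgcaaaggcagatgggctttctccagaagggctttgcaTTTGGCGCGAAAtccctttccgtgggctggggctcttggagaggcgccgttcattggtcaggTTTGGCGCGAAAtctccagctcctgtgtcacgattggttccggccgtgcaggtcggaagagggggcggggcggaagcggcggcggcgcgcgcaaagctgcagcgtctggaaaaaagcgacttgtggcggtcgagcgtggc
IFIT1: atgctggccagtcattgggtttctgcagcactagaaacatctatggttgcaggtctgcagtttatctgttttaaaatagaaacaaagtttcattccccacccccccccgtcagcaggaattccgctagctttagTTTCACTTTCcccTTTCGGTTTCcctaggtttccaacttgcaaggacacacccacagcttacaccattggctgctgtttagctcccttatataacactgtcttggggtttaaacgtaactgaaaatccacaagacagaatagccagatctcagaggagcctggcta
ASNS: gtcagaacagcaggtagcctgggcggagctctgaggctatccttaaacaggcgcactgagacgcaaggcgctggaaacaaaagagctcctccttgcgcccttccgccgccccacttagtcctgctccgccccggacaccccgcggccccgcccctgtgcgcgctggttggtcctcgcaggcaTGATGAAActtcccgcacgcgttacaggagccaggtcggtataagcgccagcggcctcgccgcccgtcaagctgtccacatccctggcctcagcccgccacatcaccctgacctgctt
XBP1: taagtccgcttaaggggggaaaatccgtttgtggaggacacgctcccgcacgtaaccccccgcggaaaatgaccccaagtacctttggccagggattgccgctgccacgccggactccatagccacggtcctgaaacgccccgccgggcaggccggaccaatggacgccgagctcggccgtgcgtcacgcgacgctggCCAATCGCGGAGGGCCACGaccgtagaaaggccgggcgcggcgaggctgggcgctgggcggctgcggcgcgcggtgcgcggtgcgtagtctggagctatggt

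Many members of the ATF4 list differed between the chemicals, and some did not. Of 27 members 3 rose and 10 fell with ETP, while 12 rose and 2 fell with QUE, with medians of -0.39 and 0.74. The difference was called lower with ETP for 13 and higher for 2 (STC2 and PSPH, chosen after their values were seen), with a median of -0.89. Together these were 55.6% of the list, against 21.8% of all genes (9.98% lower and 11.8% higher). The 2 became 1 without QUE 100 µM number 4 or QUE vehicle number 5 or 6. The member that rose most with each chemical was ATF3 (chosen after its value was seen), by 3.07 with ETP and 3.00 with QUE. SLC7A11 stood at 7.01, 7.83, 6.69, 7.08 and 6.12 with ETP 3 µM, against 8.62, 8.75, 8.92, 8.92 and 9.17 in its vehicle. Under QUE treatment it stood at 10.73, 8.29, 9.41, 9.96 and 10.26, against 8.53, 8.80, 9.20, 8.86 and 8.89 in its vehicle. ETP-treated replicates were all below their vehicles, and QUE-treated ones above except number 3. The difference for SLC7A11 was -2.80 ± 0.47 (adjusted p = 0.000188). ASNS, asparagine synthetase, with the promoter shown above, averaged 8.97 ± 0.54 with ETP 3 µM and 10.23 ± 0.84 in its vehicle, and 10.97 ± 0.72 with QUE 100 µM and 10.18 ± 0.93 in its vehicle, a difference of -2.05 ± 0.61 (adjusted p = 0.0158). SLC1A4, a transporter of neutral amino acids, differed by -3.11 ± 0.76, and its mean with ETP lay under 4. PPP1R15A, which ends the stress response by dephosphorylating eIF2 alpha, stood at 0.18 with ETP and rose by 2.35 with QUE. AARS1 and GARS1, tRNA synthetases for alanine and glycine, were lower with ETP in the difference. AARS1 changed by -0.88 and 0.28, GARS1 by -0.51 and 0.49, and SARS1, for serine, by 0.33 and 0.96 (ETP first in each pair). No other of 19 synthetases was called. The SARS1 call was lost without any 1 of 4 replicates, where the difference was -0.58 to -0.53 and under 1.5-fold. Synthetases called higher, 0 here, became 1 without ETP 3 µM number 3 or 4 or ETP vehicle number 1.

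Chaperones of the endoplasmic reticulum differed in the same direction and less. Of 19 members 1 rose and 1 fell with ETP, 5 rose and 0 fell with QUE, and the difference was called lower with ETP for 9 and higher for 0 (median -0.60), or 47.4% of the list against 9.98% of all genes called lower. Without single replicates the 9 ranged from 6 to 10. XBP1, the transcription factor of the unfolded protein response, stood at 8.46, 8.81, 8.49, 8.43 and 8.53 with ETP 3 µM, against 9.07, 8.94, 9.46, 9.06 and 9.28 in its vehicle. At 100 µM QUE it stood at 9.88, 10.44, 9.83, 9.95 and 10.28, against 9.04, 8.88, 9.14, 9.13 and 9.15 in its vehicle. Both pairs of groups were separate and moved in opposite directions, with changes of -0.62 ± 0.12 and 1.01 ± 0.12 and a difference of -1.63 ± 0.17 (adjusted p = 1.64e-06). DNAJB9, a cochaperone of BiP, rose with both, by 0.71 with ETP and 1.64 with QUE. DNAJB11, another cochaperone, differed by -0.74, and MANF, a secreted survival factor, by -0.87.

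Some cytosolic heat shock proteins were higher with ETP than with QUE. Of 16 members 4 rose and 0 fell with ETP, 1 rose and 5 fell with QUE, and the difference was called higher for 7 and lower for 0, or 43.8% of the list against 11.8% of all genes called higher. The count was 7 whichever replicate was left out. HSPA1A, the inducible HSP70, stood at 0.09 with ETP and fell by 1.28 on the log2 scale with QUE, a difference of 1.37 ± 0.33. Its near-identical copy HSPA1B may share these probes, so the copy is uncertain. DNAJA1, an HSP40, fell by 1.08 on the log2 scale with QUE (difference 1.26 ± 0.21), and HSPB8, a small heat shock protein, rose by 1.01 with ETP (difference 1.17 ± 0.31).

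The NRF2 list also held genes with a larger change with QUE. Of 24 members 2 rose and 1 fell with ETP, 9 rose and 0 fell with QUE, and the difference was called lower with ETP for 8 and higher for 1, or 37.5% of the list against 21.8% of all genes. HMOX1, heme oxygenase 1, stood at 7.43, 8.11, 7.09, 7.24 and 7.33 with ETP 3 µM, against 6.92, 7.96, 6.87, 6.35 and 6.61 in its vehicle. With QUE 100 µM it stood at 8.43, 10.39, 8.64, 9.27 and 9.71, against 6.67, 7.92, 6.74, 6.09 and 6.41 in its vehicle. Number 3 was the highest replicate within each group, and the QUE groups did not overlap. The difference for HMOX1 was -2.02 ± 0.52 (adjusted p = 0.00597). The 1 member higher with ETP was AKR1B10, an aldo-keto reductase, which rose by 4.16 ± 0.31 with ETP and by 2.14 ± 0.31 with QUE, where the vehicle mean lay under 4. AHRR, the repressor of the aryl hydrocarbon receptor, fell by 1.07 on the log2 scale with QUE and differed by 0.93 ± 0.30, and it was the only called member of 7 in that receptor's list. Without QUE vehicle number 3 the AHRR call was lost (difference 0.84, adjusted p = 0.0506). CYP1A1, the main target of that receptor, rose by 1.04 ± 0.19 with ETP from a vehicle mean under 4. With QUE its dosed and vehicle means were both under 4, and its difference was not called (adjusted p = 0.0821).

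Interferon-stimulated genes with a called difference were higher with ETP. Of 19 members 6 rose and 0 fell with ETP, 2 rose and 7 fell with QUE, and the difference was called higher for 10 and lower for 0 (median 0.88, lowest member -0.50), or 52.6% of the list against 11.8% of all genes called higher. The count was 10 without any 1 replicate. IFIT1, an antiviral RNA-binding protein, stood at 6.49, 5.42, 6.49, 6.68 and 6.54 with ETP 3 µM, against 5.30, 5.58, 6.06, 6.20 and 6.23 in its vehicle. After QUE 100 µM it stood at 3.74, 3.51, 3.65, 3.88 and 3.65, against 4.76, 5.65, 5.54, 5.91 and 5.94 in its vehicle. All QUE-treated values were under 4, the ETP groups overlapped through number 3, and the difference of 2.32 ± 0.34 is uncertain in size. The interferon-induced gene IFI44 differed by 2.06 ± 0.23, IFI35 by 1.95 ± 0.31 and RIGI, the sensor of viral RNA, by 1.87 ± 0.17. The QUE-treated mean of IFI44 also lay under 4, so the size of its difference is uncertain.

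Some histone genes were also higher with ETP. Of 15 tested 7 rose and 2 fell with ETP, 1 rose and 7 fell with QUE, and the difference was called higher for 5 and lower for 0, or 33.3% of the list against 11.8% of all genes called higher. The members ranged down to -0.51. H2BC4 stood at 8.37, 8.34, 8.44, 8.70 and 8.55 with ETP 3 µM, against 6.00, 6.58, 6.65, 7.03 and 6.65 in its vehicle. In QUE-treated replicates it stood at 4.64, 6.05, 5.83, 5.85 and 5.68, against 5.79, 6.48, 6.20, 6.87 and 6.54 in its vehicle. The ETP groups were apart and the QUE groups overlapped, with a difference of 2.67 ± 0.33 (adjusted p = 9.37e-06). H2BC21 differed by 2.53 ± 0.29 and H2BC5 by 1.28 ± 0.40, and the other probe set of H2BC5 gave -0.0033. Histone genes are near-identical copies, so the family member is uncertain.

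Signalling and inflammatory genes divided by member. Of 17 NF-kB and cytokine genes 4 rose and 1 fell with ETP, 8 rose and 1 fell with QUE, and the difference was lower with ETP for 7 and higher for 1, or 47.1% of the list against 21.8% of all genes. The 1 higher became 2 without ETP 3 µM number 3, ETP vehicle number 1 or QUE vehicle number 1. It was PTGS2, the inducible cyclooxygenase, which fell by 2.51 on the log2 scale with QUE (difference 2.88 ± 0.51). CXCL3, a chemokine, differed by -2.05 ± 0.36, and its mean with ETP 3 µM lay under 4, so the size is uncertain. TNFAIP3, an NF-kB feedback inhibitor, rose with both, with a difference of -1.15 ± 0.42 (adjusted p = 0.0452). The TNFAIP3 difference was called in 4 of 20 fits with 1 replicate left out. Of 19 RAS-MAPK output genes 8 were called lower with ETP in the difference and 2 higher, or 52.6% of the list. The 2 became 1 without ETP 3 µM number 3 or 4, ETP vehicle number 1 or 4, QUE 100 µM number 4, or QUE vehicle number 3, 4 or 6. DUSP5, a nuclear ERK phosphatase, rose by 0.63 with ETP and 2.86 with QUE, and SPRY4, a feedback inhibitor of receptor kinases, stood at -0.15 with ETP and rose by 1.91 with QUE. PHLDA1, another feedback gene and 1 of the 2, fell by 1.78 on the log2 scale with QUE, but its other 5 probe sets gave differences of -0.96 to 0.25 and do not show this. Of 17 immediate early genes the difference was lower with ETP for 5 and higher for 1, FOSL2, which like IER2 among the 5 was chosen after its value was seen, or 35.3% of the list. The 1 higher became 2 without QUE 100 µM number 1 and 0 without number 3. EGR1, an immediate early transcription factor, differed by -2.40 ± 0.69, MAFF by -1.96 ± 0.17 and KLF6 by -1.01 ± 0.17.

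Matrix and lipid genes had called shares at or under that of all genes. Of 27 matrix, TGF-beta and YAP genes the difference was higher with ETP for 4 and lower for 1 (CCN1, chosen after its value was seen), or 18.5% of the list against 21.8% of all genes. The 1 became 2 or 3 without ETP 3 µM number 3, ETP vehicle number 5, QUE 100 µM number 3 or QUE vehicle number 4. Beside COL1A1 the 4 higher were TGFBI, a TGF-beta-induced matrix protein (2.83 ± 0.30), VCAN, the proteoglycan versican (2.27 ± 0.41), and SKIL, a SMAD corepressor (1.63 ± 0.29), all of which fell with QUE. Of 23 genes of cholesterol and fatty acid synthesis 2 fell and 0 rose with ETP, against 12 and 1 with QUE. The difference was higher with ETP for 4 and lower for 1, or 21.7% of the list against 21.8% of all genes. The 4 ranged from 3 to 8 when single replicates were left out, and moved past 1.5 times without ETP 3 µM number 3, QUE 100 µM number 1 or 3, or QUE vehicle number 3. The 1 became 0 without ETP 3 µM number 3. STARD4, a sterol transporter, differed by 1.07 ± 0.23, FDPS, farnesyl diphosphate synthase, by 0.77 ± 0.18, and DHCR7, the last enzyme of the pathway, by 0.91 ± 0.29. Without QUE 100 µM number 5 or 6 the DHCR7 call was lost (adjusted p = 0.0501 and 0.0508). IDI1 differed by 1.10 ± 0.29, but its other 3 probe sets ranged from -1.14 to 1.16.

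Of 31 topoisomerase and break repair genes 9 fell with ETP (6.51% of all genes did), and 14 fell and 1 rose with QUE (15.4% and 13.7%). The difference was higher with ETP for 6 and lower for 3, or 29.0% of the list against 21.8% of all genes. RAD50, of the MRN complex at breaks, stood at 0.19 with ETP and fell by 1.38 on the log2 scale with QUE (difference 1.58 ± 0.25). TOP3A, a type I topoisomerase, rose by 0.90 with QUE (difference -1.33 ± 0.31). The difference for ATM, the kinase that answers breaks, was 0.83 ± 0.27 (adjusted p = 0.0258) and was called in 15 of 20 fits with 1 replicate left out. Of 18 apoptosis regulators the difference was higher with ETP for 3 (CASP8, BAX and, chosen after its value was seen, BIK) and lower for 2 (BCL2A1 and BCL2), or 27.8% of the list against 21.8% of all genes. BCL2, the anti-apoptotic protein, fell by 1.38 on the log2 scale with ETP to a mean just under 4, so the size is uncertain. Its difference of -1.74 ± 0.62 (adjusted p = 0.0385) was called in 6 of 20 fits with 1 replicate left out. CASP8, an initiator caspase, fell by 0.92 on the log2 scale with QUE (difference 1.31 ± 0.40).

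**Figure D3:**
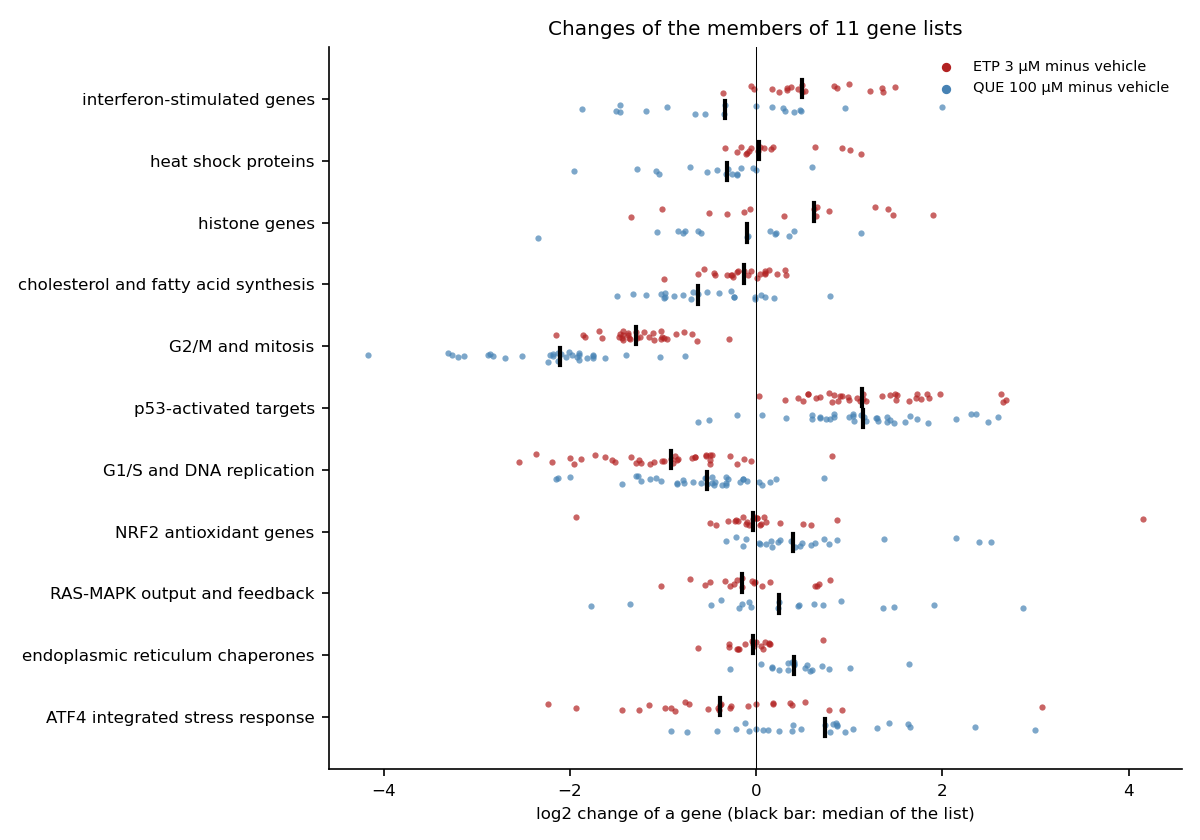
Log2 change of each tested member of 11 gene lists with ETP 3 µM (red, upper row of each list) and QUE 100 µM (blue, lower row); black bars are list medians. The medians of the p53 targets coincide (1.13 and 1.14), those of the G2/M list are -1.29 and -2.11, and those of the ATF4 list lie on either side of 0 (-0.39 and 0.74).

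Shared falls within 1.5-fold of each other were those of 46 genes, whose 95% interval of the difference lay within 1.5-fold. With a replicate block, by chemical and number or by number alone, they were 92 and 86. LBR, the lamin B receptor, changed by -1.02 and -1.11 (interval of the difference -0.38 to 0.57), and SMC2, a condensin subunit, by -1.05 and -0.99 (-0.39 to 0.28). GPSM2, which orients the spindle, changed by -1.39 and -1.32, and PHF19, a Polycomb subunit, by -1.36 and -1.53. Of 14 genes of the lamina and chromatin list 11 fell with ETP and 12 with QUE (6.51% and 15.4% of all genes did). The difference was called for HMGB3 alone (0.97 ± 0.20), or 7.14% of the list against 21.8% of all genes. The 1 became 2 without ETP 3 µM number 3, ETP vehicle number 5, QUE 100 µM number 1, 3 or 4, or QUE vehicle number 3.

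Changes at the lower doses are given as means without number 2 and with no test. All doses of a chemical share its vehicle arrays. The change of CXCL8 with ETP was -0.30 at 0.1 µM, -1.21 with 1 µM and -0.81 at the highest dose. Its change with QUE was 1.11 at the lowest dose of 1 µM, 2.56 at 10 µM, 2.73 with 30 µM and 2.06 at the highest. SLC7A11 went down over the ETP doses, with -0.58 at 0.03 µM, -1.51 after 0.3 µM and -1.93 at the highest dose. With QUE, SLC7A11 was highest at 10 and 30 µM (1.67 and 1.68) and stood at 0.87 at 100 µM.

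Other genes had their larger values in the upper part of the QUE series. CYP4F3 stood at 0.21 at 10 µM and 3.00 at 30 µM, DLGAP5 at -0.52 and -2.98, and HSPA4L at -0.44 and -2.14. TXNIP was already at -0.70 at 3 µM and -1.72 at 10 µM. H2BC4 stood at 0.66 at 0.03 µM and 1.90 at 3 µM ETP, and was lowest with QUE at 10 and 30 µM (-1.42 at both), with -0.77 at 100 µM. The median of the p53 list was 0.48 at 0.03 µM ETP, 0.92 after 0.3 µM and 1.13 at the highest dose. With QUE it was 0.26 at 10 µM, 0.73 after 30 µM and 1.14 at the highest dose. The median of the NRF2 list with QUE was highest at 10 µM (0.70) and stood at 0.40 at 100 µM. The ATF4 list median with ETP was -0.22 at 0.03 µM and -0.39 at 3 µM, and with QUE 0.41 at 10 µM and 0.74 at 100 µM.

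**Figure D4:**
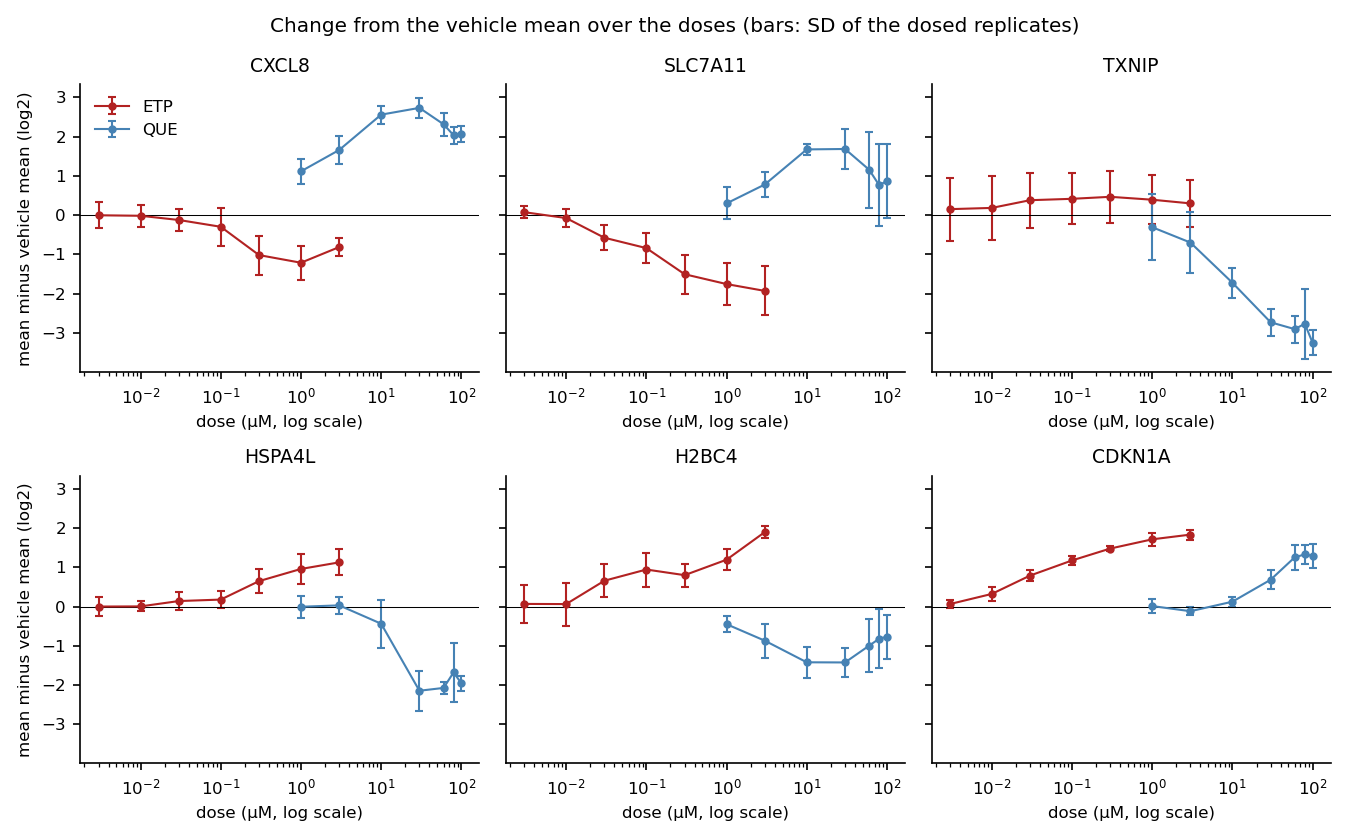
Mean log2 change from the vehicle mean over the 7 doses of ETP (red) and of QUE (blue) for 6 genes, on a log dose axis in µM; bars are SDs of the dosed replicates. CXCL8 and SLC7A11 lie on opposite sides of 0 with the chemicals, TXNIP goes down with QUE from its lowest doses, and CDKN1A goes up with both.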

How the data were processed

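Expression was measured on Affymetrix arrays, 1 per sample. The authors deposited log2 values per probe set, made with GCRMA in Partek, per the submitters' processing notes; versions and genome build are not given in the sources used here. GCRMA applies quantile normalization, and array medians differed between the chemicals, so levels were compared within a chemical. Arrays hold no depth, and their number limits the precision.

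Of 54613 probe sets, 40914 had 1 gene symbol in the platform annotation, 864 several and 12835 none, and 40858 symbols equalled the RefSeq name of their gene ID. Probe sets at 4 or more in at least 5 of 20 replicates were kept, and per gene the one with the highest mean, which left 11412 genes. limma 3.58.1 (lmFit, eBayes with trend) in R 4.3.3 fitted 4 groups with 16 residual degrees of freedom, with Benjamini-Hochberg adjustment over all genes. Figures were drawn with matplotlib 3.10.9.

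Members and gene lists were chosen with earlier results of these data known, so lists are described by counts. Named were the 10 largest differences in each direction with separate responses, the 5 largest of each opposite and shared kind, up to 4 called members of each list, and CDKN1A, MDM2, GDF15, HMOX1, CYP1A1 and TOP2A; a few of these are not reported here. Arrays with the same number deviated alike within ETP (r of 0.19 to 0.73), between the vehicles of the chemicals (0.24 to 0.84) and less within QUE (0.07 to 0.35). The fit has no replicate block, as its design was set, and the block is an alternative. Alternatives covered the filter, probe set choice, normalization, array weights, number 2, the block and leaving out replicates. The fit was tested on simulated data with independent noise in each replicate, without the deviations that arrays of the same number share. It called 70% of added changes of 1 (log2) and 96% of those of 2 in the right direction. Of 11212 unchanged genes it called 29. The simulation cannot show how the shared deviations affect the calls.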

Additional observations from a re-analysis of the deposited data

Results flagged for a closer look

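The 4 groups of 30 leading genes were searched for a replicate far from the other 4, which chance gives in about 1 of 20 groups; 15 of 120 groups (12.5%) held one. Vehicle number 1 was low in the ETP experiment for GALNT15 (5.92, others 7.43 to 7.87), SLC2A12 (6.52, others 8.05 to 8.52) and TXNIP (8.69, others 10.22 to 10.67), and high for MIR17HG (6.83, others 5.51 to 5.73). In the QUE vehicle number 1 was low for SLC2A12 (6.33, others 7.73 to 8.16), and number 4 was low for MDM2 (9.42, others 9.76 to 9.84) and TOP2A (11.24, others 11.65 to 11.79).

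With QUE 100 µM number 3 lay nearer to its vehicle than the others in 5 genes. It was high for RAB26 (6.07, others 2.49 to 3.02) and PLA2G4A (6.31, others 3.02 to 3.57), and low for ESM1 (8.19, others 10.57 to 11.21), BCL2A1 (7.48, others 9.04 to 9.55) and NMRAL2P (3.65, others 6.23 to 7.01). With ETP 3 µM number 1 was low for RAB26 (6.83, others 7.43 to 7.65) and high for FOSL1 (8.19, others 7.41 to 7.61), and number 3 was low for HSPA4L (7.61, others 8.23 to 8.40).

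Among 3663 probe sets above background that carry no single gene symbol and enter no comparison above, the difference was called higher for 250 and lower for 406 (17.9%). The lowest belonged to a probe set with no gene symbol in the annotation, at -5.51 ± 0.28 (SE, adjusted p = 1.08e-11 over these probe sets). The probe set stood at 3.10 ± 0.24 with ETP 3 µM and 3.24 ± 0.13 in its vehicle, and at 8.53 ± 0.54 with QUE 100 µM and 3.16 ± 0.22 in its vehicle (log2, SD, n = 5 each). It was above background with QUE 100 µM alone and was picked as the lowest of the 3663, so it had to differ once it passed the filter. Its p-value is therefore no support of its own, and the size is uncertain.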

How the results depend on the processing

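The counts depend first on number 2. Kept as labelled, it left 0 called differences in either direction and 0 in every pattern with a called difference, also with a replicate block by chemical and number (chosen after seeing the data). Shared rises and falls within 1.5-fold were then 108 and 76, and 129 and 129 with the block. Without number 2, a replicate block called 1519 higher and 1266 lower, and as numbers shared by both chemicals 1537 and 1277. Shared falls within 1.5-fold became 92 and 86 in these fits, and shared falls larger with ETP 11 in each, against 3. Array weights, lowest for QUE 100 µM number 3 (0.064) and number 1 (0.23), gave 1837 genes lower, 49 opposite with ETP lower, 145 shared rises and 113 shared falls within 1.5-fold, 74 rises and 173 falls larger with QUE, 12 falls larger with ETP, 1104 higher with QUE alone and 210 lower with ETP alone. With MMS groups in the fit the falls larger with ETP were 5. Without any 1 replicate the called differences numbered 2291 to 3156, the most without QUE 100 µM number 3. Genes opposite with ETP lower then ranged from 17 to 40, genes lower with ETP alone from 107 to 207 and shared rises larger with QUE from 24 to 57, each highest without QUE 100 µM number 3. Shared falls larger with QUE ranged from 48 to 116, the most without QUE 100 µM number 1, and shared falls larger with ETP from 1 (without QUE vehicle number 1) to 5. With the mean of all probe sets of a gene, the called differences of HK2 and PHLDA1 changed sign, to 0.12 and -0.0023. No other named gene's called difference changed sign in any alternative run. A filter at 5 or none, values under 4 set to 4, quantile normalization, median centring, the mean of probe sets, no mean-variance trend, all ETP and QUE groups in 1 fit, and either array of QUE 100 µM number 6 alone kept each count of genes within 1.5 times. Signals near background limit the sizes of changes.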

Other observations

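The share of members with a called difference was under or near the 21.8% of all genes in 5 further lists. Of 22 lysosome and autophagy genes the difference was called for 2 (9.09%), TFEB, a transcription factor of lysosome genes (1.84 ± 0.31), and MCOLN1, a lysosomal calcium channel (-0.94 ± 0.24). The other probe set of TFEB gave 0.54, under 1.5-fold. Of 24 ribosome biogenesis genes it was called for 3 (12.5%), POLR1B, a subunit of RNA polymerase I (1.04 ± 0.14), HEATR1, of the small subunit processome (0.88 ± 0.18), and NOP58, a core protein of box C/D particles (-0.65 ± 0.14). Of 24 hypoxia and glycolysis genes it was called for 5 (20.8%), higher for 3, with ALDOC, a brain-type aldolase, first (1.52 ± 0.38), then PFKFB4 (0.77) and PDK1 (0.65), and lower for 2, INSIG2, a sterol sensor (-1.12 ± 0.19), and HK2, a hexokinase (-0.79 ± 0.23). HK2 has another probe set with a difference of 1.02, and without QUE 100 µM number 3 the HK2 difference was -0.58, under 1.5-fold. PDK1 was chosen after its value was seen. Of 5 metallothioneins limma called 0 in the difference, which ranged from -0.56 to -0.32. Those called lower became 1 without ETP vehicle number 1 or 3, QUE 100 µM number 1 or 3, or QUE vehicle number 4 or 6. Leaving out QUE 100 µM number 1 made the hypoxia genes called lower 4 and the ribosome biogenesis genes called lower 2, and leaving out QUE vehicle number 4 made the ribosome biogenesis genes called higher 4. The lysosome genes called higher became 2 without ETP vehicle number 4 or QUE 100 µM number 4, and those called lower became 2 without QUE 100 µM number 3. Of 11 housekeeping genes only TFRC, the transferrin receptor, was called (-0.95 ± 0.18), and its other 3 probe sets ranged from -1.40 to 0.06.

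The difference was also called for 481 genes with a call for neither response on its own, 4.21% of those tested.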
